A study of Mus musculus with 12 samples.

Results

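The integrins, laminins, nidogens and basement membrane heparan sulfate proteoglycans were followed in *Bmi1*-CPC, the heart cells that carry a YFP tag switched on by CreER from the *Bmi1* locus. Genes were taken by symbol: the integrin alpha and beta chains, the laminin alpha, beta and gamma chains, *Nid1*, *Nid2*, *Hspg2* and *Agrn*. This gave 33 of the 12528 genes measured, made up of 14 integrin alpha chains, 6 integrin beta chains, 9 laminin chains and 4 nidogen or proteoglycan genes. Collagens, including the type IV collagens of basement membranes, are not among them. Another 8 chains of these families (*Itga2b*, *Itgad*, *Itgae*, *Itgax*, *Itgb6*, *Itgb7*, *Lama1* and *Lamb3*) were not analysed here.

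A basement membrane is the thin sheet of matrix that surrounds muscle and fat cells, nerves and pericytes and lies under endothelium and epithelium. Its laminins are secreted as trimers of an alpha, a beta and a gamma chain and polymerize at the cell surface, nidogens and the proteoglycans perlecan and agrin tie that network to type IV collagen and to the cell, and the alpha chain decides which receptor a laminin binds. Integrins are the main receptors for matrix. Each is a pair of an alpha and a beta chain, and the pairing sets the ligand: laminins, collagens, proteins with an arginine-glycine-aspartate motif such as fibronectin and vitronectin, or adhesion proteins on other cells.

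The question the samples address is how *Bmi1*-CPC differ from other SCA-1+ heart cells at rest, and how they change after acute myocardial infarction (AMI). RNA was sequenced from 12 libraries in 3 groups of 4: from unchallenged hearts, *Bmi1*-CPC sorted as YFP+ and the *Sca-1*-YFP- cells sorted as SCA-1+, YFP- and CD45-, and from infarcted hearts *Bmi1*-CPC again. All came from adult C57BL/6 mice of genotype Bmi1CreER/+;Rosa26YFP/+ given tamoxifen (9 mg for each 40 g of mouse) on 3 days, 24 h apart. A homeostatic library pooled 6 mice and an AMI library 2 to 3. Resting hearts were taken 5 days after tamoxifen. For AMI, the left anterior descending artery was ligated 5 days after tamoxifen and the heart was taken 5 days later, so AMI and control hearts differ in the time since tamoxifen, and the controls were not sham-operated. YFP marks cells in which the *Bmi1* promoter had driven CreER, and any progeny of theirs, in mice that carry the CreER allele at 1 copy of *Bmi1*. Removal of CD45+ cells is described for the *Sca-1*-YFP- population only, and the titles of the *Bmi1*-CPC samples read as SCA-1+ YFP+ where the sorting protocol names YFP alone. *Bmi1* had values of 43.4 to 60.0 in *Bmi1*-CPC, 25.0 to 35.3 in the *Sca-1*-YFP- cells and 41.1 to 49.7 after AMI, so the gene that drives the tag was read in every group, and *Ly6a*, which encodes SCA-1, was at 468 or more in every library. *Ptprc*, which encodes CD45, was at 14.7 to 22.5 in *Bmi1*-CPC, 0.813 to 2.12 in the *Sca-1*-YFP- cells and 64.0 to 149 after AMI.

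Values are the normalized expression values of the study. They recover 3397621 to 8078721 reads per library, and 1 mitochondrial ribosomal RNA gene, *mt-Rnr2*, took 25.0% to 32.8% of them in *Bmi1*-CPC, 10.4% to 23.7% in the *Sca-1*-YFP- cells and 20.3% to 33.4% after AMI. This share did not overlap between the homeostatic groups, and its part in the results was not tested beyond the scaling without that gene. Fold changes are differences of log2(value + 1), which understates the change of low genes, with limma's SE and its p adjusted over all genes tested. A gene was called at an adjusted p under 0.05. The labels give each replicate as a pool of mice, so p-values measure the spread between pools. In sorted bulk RNA, fewer cells of a type and less RNA per cell cannot be told apart.

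In homeostasis, *Bmi1*-CPC and *Sca-1*-YFP- cells differed in nearly the whole adhesion set, in both directions. All 33 genes passed the filter on low values, and 12 were higher in *Bmi1*-CPC, 16 were lower and 5 were not called, where 34.4% of the 12450 genes tested were called (16.8% higher and 17.6% lower). Changes of at least 1 on the log2 scale were called for 10 higher and 10 lower genes, beside 7.81% and 8.43% of all genes. The median of the 33 was -0.33, against 0.00 for all genes tested. Values did not overlap between the groups for 12 genes that were higher and 15 that were lower, beside 33.7% of all genes (16.6% and 17.1%). *Itgam* and *Itgb2* passed the filter through *Bmi1*-CPC alone and *Lamc3* through *Sca-1*-YFP- cells alone, and of the other 30 genes 10 were higher and 15 lower. These fits do not pair the libraries. With the replicate number as a block, the 33 genes split into 12 higher and 17 lower, with *Itga5* called lower. The alpha chains grouped here as laminin-binding (*Itga3*, *Itga6* and *Itga7*) and the leukocyte integrins were higher in *Bmi1*-CPC, together with the laminin alpha chains *Lama3* and *Lama5*. The laminin chains *Lama2*, *Lama4*, *Lamb1*, *Lamb2*, *Lamc1* and *Lamc3*, *Nid1*, and *Itgav* with its partners *Itgb3*, *Itgb5* and *Itgb8* were lower. *Itga1*, *Itga4*, *Itgb4* and *Agrn* were also higher, and *Itga2*, *Itga8*, *Itga9* and *Itga11* also lower.

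After AMI 11 of the 20 integrin chains were higher, *Itga1* and *Itga7* were lower and 7 were not called, and 6 of the 8 laminin chains tested were not called. Of the 32 genes tested (*Lamc3* was too low), 11 were higher than in homeostatic *Bmi1*-CPC, 6 were lower and 15 were not called, where 43.4% of 12486 genes were called (21.4% higher and 22.0% lower). Changes of at least 1 on the log2 scale were called for 8 higher genes and 1 lower gene, beside 6.68% and 4.04% of all genes. The share of the set that was called, 53.1%, stands nearer to that background than the 84.8% in homeostasis. The median was -0.02, the same as for all genes tested. Groups did not overlap for 10 genes that were higher and 5 that were lower, beside 40.6% of all genes (20.0% and 20.6%). All 11 genes that were higher encode integrin chains. The 6 lower ones are *Hspg2*, *Agrn*, *Lamb2*, *Lama5*, *Itga1* and *Itga7*. Both comparisons use the same 4 *Bmi1*-CPC libraries, so a value that happens to be low in them enters both with opposite signs.

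**Figure D1:**
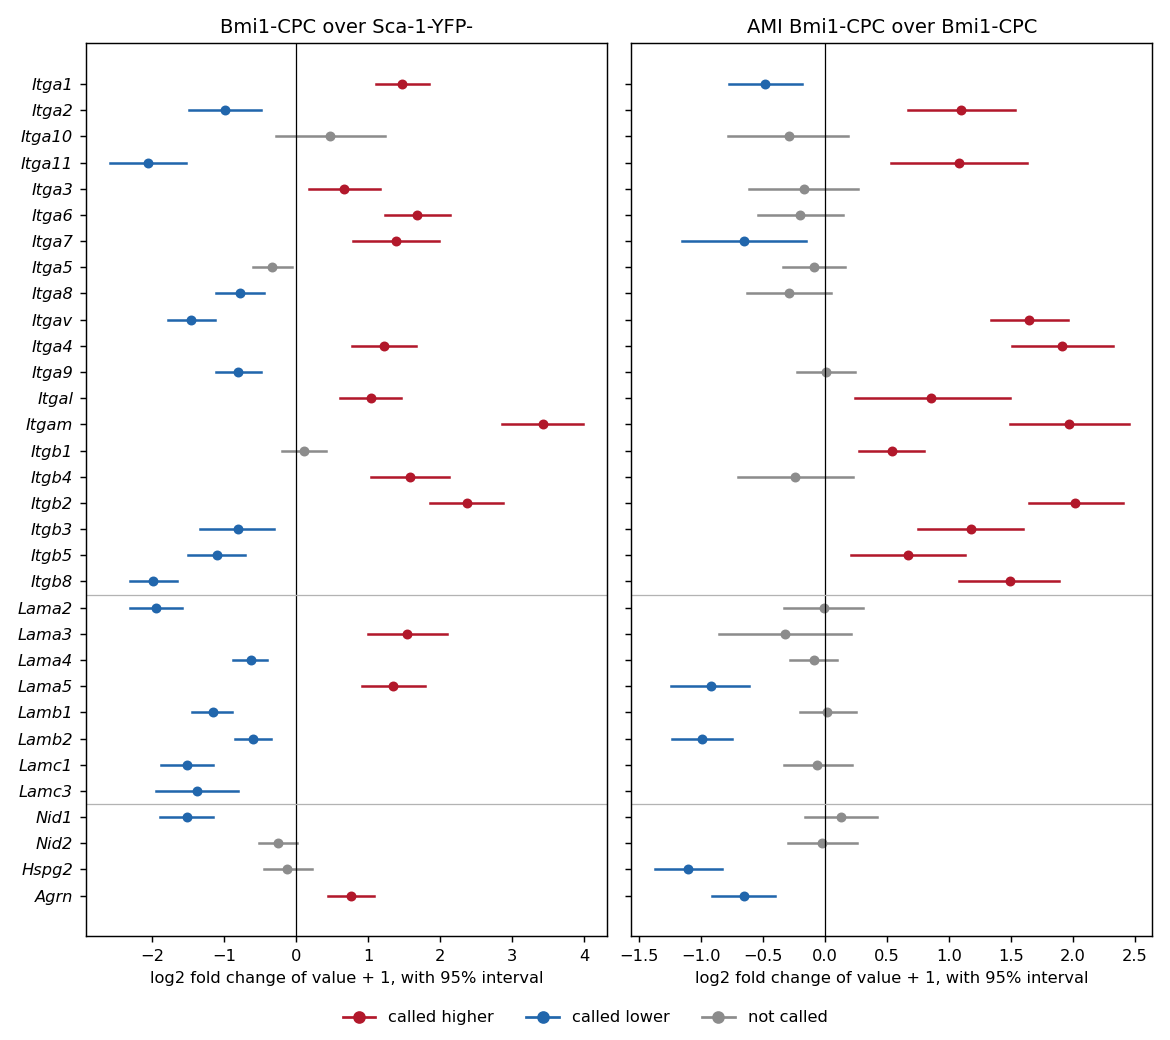
Log2 fold changes of value + 1 (horizontal axis) for 32 of the genes (vertical axis; integrins, laminins, then nidogens and proteoglycans, separated by grey lines), in *Bmi1*-CPC over *Sca-1*-YFP- cells (left) and AMI *Bmi1*-CPC over *Bmi1*-CPC (right). Points are estimates and bars 95% intervals from limma. On the left the genes range from -2.06 (*Itga11*) to 3.43 (*Itgam*), and on the right from -1.10 (*Hspg2*) to 2.02 (*Itgb2*), with *Lamc3* not tested.

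Promoters of 5 genes are shown because the results turn on them: *Lamb1* and *Nid1* were lower in *Bmi1*-CPC and not called after AMI, *Itgav* and *Itgb8* were lower in *Bmi1*-CPC and higher after AMI, and *Itgam* was higher in both comparisons. RefSeq start sites (GRCm38.p6) were matched by symbol for 21 of the 33 genes. Those not matched include *Itga6*, *Itga7*, *Itgal*, *Itgb2*, *Itgb3*, *Itgb4*, *Lama3*, *Lama4*, *Lamc1*, *Lamc3* and *Nid2*. Each line gives the 200 bases before the start, 5′ to 3′ on the gene's strand, with motif matches on either strand in capitals.
Lamb1 chr12:31265093-31265292 (+ strand): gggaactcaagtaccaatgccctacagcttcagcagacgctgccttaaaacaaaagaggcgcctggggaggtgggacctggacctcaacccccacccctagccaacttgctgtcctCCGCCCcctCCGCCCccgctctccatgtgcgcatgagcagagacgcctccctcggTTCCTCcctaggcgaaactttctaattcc
Nid1 chr13:13437402-13437601 (+ strand): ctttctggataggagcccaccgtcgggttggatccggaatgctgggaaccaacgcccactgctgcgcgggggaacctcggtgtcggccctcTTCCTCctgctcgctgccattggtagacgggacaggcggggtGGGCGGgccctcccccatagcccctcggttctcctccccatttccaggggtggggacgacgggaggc
Itgav chr2:83724197-83724396 (+ strand): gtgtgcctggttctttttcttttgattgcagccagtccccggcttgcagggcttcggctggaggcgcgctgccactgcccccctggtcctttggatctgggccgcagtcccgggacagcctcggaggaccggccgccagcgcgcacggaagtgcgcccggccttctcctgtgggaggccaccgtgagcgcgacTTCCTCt
Itgb8 chr12:119238277-119238476 (- strand): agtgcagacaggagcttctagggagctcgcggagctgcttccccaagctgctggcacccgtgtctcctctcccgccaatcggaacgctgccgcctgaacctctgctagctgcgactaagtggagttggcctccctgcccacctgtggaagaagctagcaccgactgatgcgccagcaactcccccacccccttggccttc
Itgam chr7:128062440-128062639 (+ strand): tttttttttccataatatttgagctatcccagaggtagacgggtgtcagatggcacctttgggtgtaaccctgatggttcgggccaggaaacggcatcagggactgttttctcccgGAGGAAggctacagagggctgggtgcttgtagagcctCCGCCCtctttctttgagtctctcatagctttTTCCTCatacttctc
The capitals mark the GC box GGGCGG, the core bound by factors of the Sp family, and GAGGAA, the core bound by PU.1, a factor of myeloid cells, and no match overlapped another. *Lamb1* held 2 GC boxes and 1 GAGGAA, *Nid1* 1 of each, *Itgav* 1 GAGGAA and *Itgam* 1 GC box and 2 GAGGAA. *Itgb8* held neither. Of all 27025 promoter windows 31.3% held a GC box and 18.9% a GAGGAA, beside 11 and 8 of the 21 genes. The AP-1 site TGANTCA (5.55% of all windows) and the TATA box TATAAA (10.6%) were in none of the 21 windows. GC content was 60.5% for *Lamb1*, 68.0% for *Nid1* and *Itgav*, 63.5% for *Itgb8* and 50% for *Itgam*, beside a median of 53.0%. A match is a description of the sequence and says nothing of a factor's binding.

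How the libraries are scaled moves these splits. With values scaled to equal library totals, the median of all genes in homeostasis moved by -0.23, the share of all calls that were higher in *Bmi1*-CPC went from 48.8% to 28.3%, and the 33 genes split into 11 higher and 18 lower (*Itga3* lost its call, and *Itga5* and *Nid2* were called lower). For AMI the median moved by 0.09, the share of all calls that were higher went from 49.3% to 61.2%, and the genes split into 11 higher and 4 lower (*Itga1* and *Itga7* lost their calls). With *mt-Rnr2* left out of the totals the splits moved less. In homeostasis the median then moved by -0.04, 45.1% of all calls were higher, and the set split into 12 higher and 17 lower. For AMI the median moved by 0.03, 53.5% of all calls were higher, and the set split into 11 higher and 6 lower.

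Other cell types moved with these groups, so their markers stand here beside the counts. Summed over 11 fibroblast markers, all lower in *Bmi1*-CPC, values were 3433 to 6222 in *Bmi1*-CPC, 17691 to 21439.9 in the *Sca-1*-YFP- cells and 12262 to 17464 after AMI, where 5 were higher and 1 lower. Those higher were *Lum* (log2 fold change 1.31), *Ddr2* (0.47) and the collagens *Col1a1* (2.92), *Col1a2* (2.59) and *Col3a1* (3.21). *Tcf21* was lower (-0.63), and *Pdgfra*, *Dcn*, *Fbln1*, *Pi16* and *Cd248* were not called (-0.38 to 0.31). Means of *Col3a1* alone were 706 in *Bmi1*-CPC and 6552 after AMI. The 12 endothelial markers, all higher in *Bmi1*-CPC, summed to 5614 to 7616, 1555 to 3170.3 and 3569.9 to 5263 in the order of the fibroblast sums. After AMI 9 of them were lower. The 10 pericyte and smooth muscle markers (9 higher and 1 lower in *Bmi1*-CPC) summed to 1796 to 2732, 473 to 878 and 1791 to 2245 in the same order. After AMI 4 of them (*Kcnj8*, *Abcc9*, *Cspg4* and *Notch3*) were lower, with log2 fold changes of -1.36 to -0.84, and *Acta2* and *Tagln* were higher, with 1.25 and 1.53. Each of the 10 cardiomyocyte markers was higher in *Bmi1*-CPC and lower after AMI, with sums of 791 to 1330.4, 80.7 to 211 and 287 to 453. The part of these cell types in the results on laminins and integrins was not tested.

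Laminins were read mainly as the alpha 2 and alpha 4, beta 1 and gamma 1 chains. To compare chains, values were divided by the length of the longest protein-coding transcript. In *Bmi1*-CPC the mean value per kilobase was 173 for *Lamc1*, 88.8 for *Lama4*, 58.5 for *Lamb1*, 55.5 for *Lama2* and 26.2 for *Lamb2*. In *Sca-1*-YFP- cells the alpha chains stood in the other order, with a value per kilobase of 213 for *Lama2* and 138 for *Lama4*. *Lama5* was at 6.16 and *Lama3* at 2.97 per kilobase in *Bmi1*-CPC, and *Lamc3* was lower than either. After AMI *Lamc1* was at 166, *Lama4* at 83.6, *Lamb1* at 59.5 and *Lama2* at 54.7 per kilobase, the order of homeostatic *Bmi1*-CPC.

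The alpha chains split. *Lama2*, the alpha chain of the main laminin of muscle basement membranes, had values of 641, 579.5, 406 and 509 in the 4 *Bmi1*-CPC libraries and 2449, 1766, 2123 and 1862 in the 4 *Sca-1*-YFP- libraries. Every *Sca-1*-YFP- library was above every *Bmi1*-CPC library, and the log2 fold change was -1.95 ± 0.16 (SE, adjusted p = 4.8e-06). The AMI libraries had 574, 539, 562 and 428 and overlapped the homeostatic *Bmi1*-CPC, with a log2 fold change of -0.01 (95% interval -0.33 to 0.31). *Lama4*, an alpha chain of endothelial basement membranes, had values of 517, 533, 559.6 and 537 in *Bmi1*-CPC, 815, 783, 931 and 804 in the *Sca-1*-YFP- cells and 460.4, 527, 526 and 508 after AMI. It was lower in *Bmi1*-CPC than in the *Sca-1*-YFP- cells by less than *Lama2*, with a log2 fold change of -0.63 ± 0.11 (SE, adjusted p = 5.9e-04), and was not called after AMI (-0.09, 95% interval -0.28 to 0.10).

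*Lama5*, the other alpha chain of mature endothelial basement membranes and also a chain of many epithelia, went the opposite way. Its values were 54.9, 85.6, 68.3 and 71.7 in *Bmi1*-CPC and 16.9, 33.3, 28.7 and 30.5 in the *Sca-1*-YFP- cells, without overlap, and the log2 fold change was 1.35 ± 0.20 (SE, adjusted p = 2.0e-04). After AMI it was at 37.3, 32.4, 32.0 and 43.8, below every homeostatic *Bmi1*-CPC library, a log2 fold change of -0.92 ± 0.14 (SE, adjusted p = 3.6e-04). *Lama3*, the alpha chain of the laminin that anchors epithelia, was at 20.3, 29.5, 42.8 and 32.6 in *Bmi1*-CPC and 5.74, 10.6, 11.5 and 12.6 in the *Sca-1*-YFP- cells, with a log2 fold change of 1.54 ± 0.25 (SE, adjusted p = 4.1e-04). Its AMI libraries, at 16.7, 21.2, 25.3 and 36.8, overlapped the homeostatic ones and it was not called (-0.32, adjusted p = 0.31).

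*Lamb1*, *Lamb2*, *Lamc1* and *Lamc3* were lower in *Bmi1*-CPC. *Lamc1*, the gamma chain of most laminins, had values of 1479.8, 1447, 1107 and 1243 in *Bmi1*-CPC, 4364, 3208, 3907 and 3582 in the *Sca-1*-YFP- cells and 1269.8, 1364, 1333 and 1092 after AMI. The homeostatic groups stood apart with a log2 fold change of -1.51 ± 0.16 (SE, adjusted p = 2.1e-05), and the AMI difference was -0.06 (95% interval -0.33 to 0.22). *Lamb1* had values of 380.4, 308, 316 and 349 in *Bmi1*-CPC, 865, 646, 823 and 713 in the *Sca-1*-YFP- cells and 309, 355, 386 and 328 after AMI, with log2 fold changes of -1.16 ± 0.13 (SE, adjusted p = 2.3e-05) in homeostasis and 0.02 after AMI (95% interval -0.20 to 0.25). *Lamb2*, the beta chain of the neuromuscular junction, vessel walls and the kidney filter, was lower in both comparisons. Its mean value was 222 ± 7.91 (SD) in the *Sca-1*-YFP- cells, 147 ± 21.2 in *Bmi1*-CPC and 73.0 ± 3.91 after AMI, and its log2 fold changes were -0.60 ± 0.12 (SE, adjusted p = 0.0015) and -0.99 ± 0.11 (SE, adjusted p = 3.9e-05).

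The laminin chain *Lamc3* was low. It was read by 62 reads in all in the *Sca-1*-YFP- cells, 6 in *Bmi1*-CPC and 10 after AMI. The ratio of its read rates in *Bmi1*-CPC to *Sca-1*-YFP- cells was 0.130 (exact 95% interval 0.0459 to 0.299), and that of AMI to homeostatic *Bmi1*-CPC was 0.954 (0.314 to 3.19). These intervals cover counting error only.

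*Nid1* was lower in *Bmi1*-CPC at rest and was not called after AMI, as were *Lama2*, *Lama4*, *Lamb1* and *Lamc1*. The gene, which links laminin to type IV collagen, had values of 1609, 1244, 1077 and 1302 in *Bmi1*-CPC, 4115, 3108, 4082 and 3674 in the *Sca-1*-YFP- cells and 1411, 1513, 1496 and 1258 after AMI. Its log2 fold change was -1.52 ± 0.17 (SE, adjusted p = 2.6e-05) in homeostasis and 0.13 after AMI (95% interval -0.16 to 0.42). *Nid2*, its paralog, had values of 120.3, 154, 122 and 106 in *Bmi1*-CPC, 147, 151, 158 and 139.8 in the *Sca-1*-YFP- cells and 103, 141, 122 and 127 after AMI, with overlap in both comparisons. It was not called, with -0.25 (95% interval -0.52 to 0.01, adjusted p = 0.13) in homeostasis and -0.02 (-0.30 to 0.26) after AMI. Without *Bmi1*-CPC replicate 2 it was called lower in homeostasis, with a log2 fold change of -0.36 (adjusted p = 0.028).

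The proteoglycans were lower after AMI. *Hspg2*, which encodes perlecan, had values of 2383, 2596, 2007 and 2051 in *Bmi1*-CPC, 2808, 2224, 2442 and 2299 in the *Sca-1*-YFP- cells and 940.0, 1103, 1144 and 1014 after AMI. The homeostatic groups overlapped (-0.12, 95% interval -0.45 to 0.22, adjusted p = 0.63), and all 4 AMI libraries lay below both, with a log2 fold change of -1.10 ± 0.13 (SE, adjusted p = 4.9e-05) against *Bmi1*-CPC. *Agrn*, which encodes agrin, a ligand of laminin and dystroglycan that organizes the neuromuscular junction, had values of 114, 159, 159 and 152 in *Bmi1*-CPC, 74.3, 107, 77.7 and 83.5 in the *Sca-1*-YFP- cells and 83.0, 93.9, 91.1 and 99.3 after AMI. It was higher in *Bmi1*-CPC than in the *Sca-1*-YFP- cells by 0.76 ± 0.14 (SE, adjusted p = 0.0012) and lower after AMI, with -0.65 ± 0.12 (SE, adjusted p = 9.1e-04). The 12 endothelial markers, given above, were all higher in *Bmi1*-CPC, and 9 of them were lower after AMI. Of 10 pericyte and smooth muscle markers 4 were lower after AMI, 2 (*Acta2* and *Tagln*) were higher and 4 were not called. At rest, unlike the endothelial markers, *Hspg2* was not called and *Lamb2* was lower in *Bmi1*-CPC. The part of these cell types in the values of *Hspg2*, *Agrn*, *Lama5* and *Lamb2* was not tested.

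**Figure D2:**
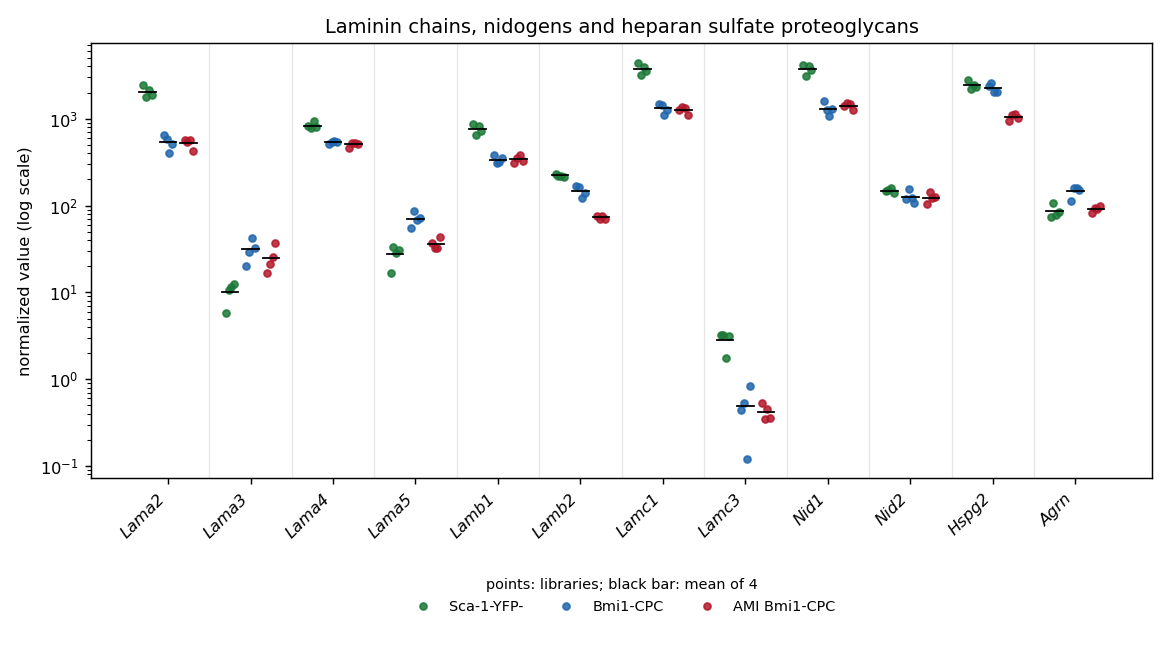
Normalized values (vertical axis, log scale) of laminin chains, the nidogens and proteoglycans (horizontal axis) in the *Sca-1*-YFP- cells, *Bmi1*-CPC and AMI *Bmi1*-CPC. Each point is 1 library and black bars are means of 4. *Lama2* in the *Sca-1*-YFP- cells lies at 1766 to 2449, above 406 to 641 in *Bmi1*-CPC and 428 to 574 after AMI, and *Lama5* has the opposite order of the homeostatic groups.

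The proportions of the chains within a library do not depend on how libraries are scaled. The ratio of *Lama4* to *Lama2*, per kilobase, was 0.529 to 0.705 in the *Sca-1*-YFP- cells, 1.28 to 2.19 in *Bmi1*-CPC and 1.27 to 1.89 after AMI. All *Sca-1*-YFP- libraries thus had more *Lama2* than *Lama4* per kilobase and all *Bmi1*-CPC libraries the reverse. The ratio of *Lama5* to *Lama2* was 0.00583 to 0.0159, 0.0723 to 0.142 and 0.0481 to 0.0864 in the same groups, with the AMI libraries between the other two groups in median and partly overlapping *Bmi1*-CPC. Among integrins, *Itga6*, a laminin receptor chain, to *Itga5*, a fibronectin receptor chain, stood at 0.868 to 2.39, 4.15 to 8.43 and 4.14 to 7.12. These ratios were given as values, with no test.

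**Figure D3:**
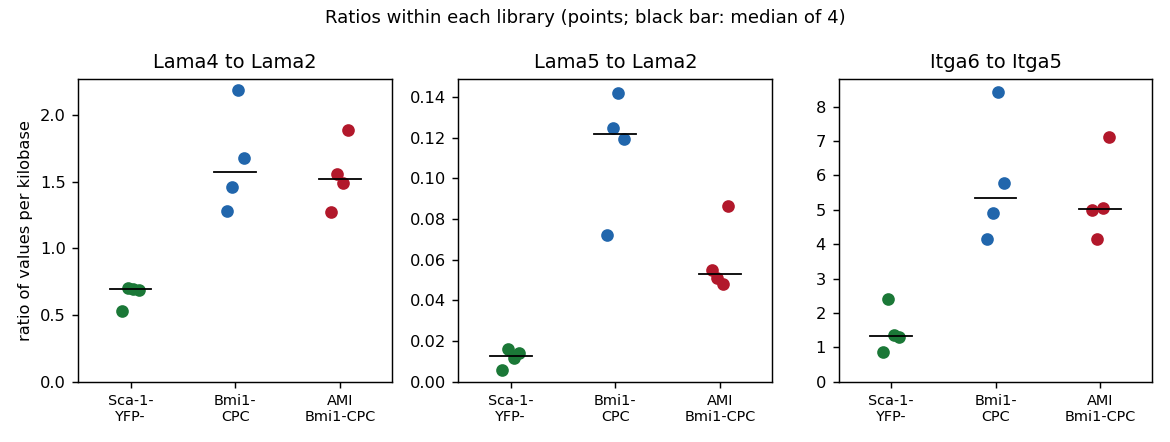
Ratios of values per kilobase within each library (vertical axes, linear from 0) for *Lama4* to *Lama2*, *Lama5* to *Lama2* and *Itga6* to *Itga5* in the 3 groups. Points are libraries and black bars medians of 4. Every *Sca-1*-YFP- library lies below every *Bmi1*-CPC library in all 3 panels, for example 0.868 to 2.39 against 4.15 to 8.43 for *Itga6* to *Itga5*.

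*Itga3*, *Itga6* and *Itga7*, the 3 alpha chains grouped here as laminin-binding, were all called higher in *Bmi1*-CPC than in the *Sca-1*-YFP- cells. *Itga6*, whose product pairs with beta 1 or beta 4, was the most abundant alpha chain per kilobase in *Bmi1*-CPC (161, against 50.7 in the *Sca-1*-YFP- cells). Its values were 524, 655, 882 and 707 in *Bmi1*-CPC and 141, 298, 217 and 219.8 in the *Sca-1*-YFP- cells, without overlap, and the log2 fold change was 1.68 ± 0.21 (SE, adjusted p = 5.9e-05). AMI libraries had 508, 546, 624 and 718 and the gene was not called (-0.20, 95% interval -0.54 to 0.15). *Itga7*, the laminin receptor chain of muscle, and *Itga3*, a receptor chain for the alpha 3 and alpha 5 laminins, were low: *Itga7* had 4.88 to 10.1 in *Bmi1*-CPC and 1.24 to 2.79 in the *Sca-1*-YFP- cells, and *Itga3* had 7.09 to 12.9 and 4.06 to 6.85. Both were called higher, with log2 fold changes of 1.39 ± 0.27 (SE, adjusted p = 0.0016) and 0.67 ± 0.23 (SE, adjusted p = 0.037). The call of *Itga3* was lost in 5 of the 8 fits that left out 1 library, with adjusted p up to 0.11 without *Sca-1*-YFP- replicate 1. After AMI *Itga7* was lower (-0.65 ± 0.23 SE, adjusted p = 0.038), a call that was lost without any of 6 libraries: *Bmi1*-CPC replicate 2 or 3 or any AMI library, with adjusted p of 0.052 to 0.10.

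The beta 1 chain, which pairs with most alpha chains named here, overlapped between the homeostatic groups. *Itgb1* had 456, 530.2, 641 and 596 in *Bmi1*-CPC and 505, 636, 469 and 452 in the *Sca-1*-YFP- cells, and its log2 fold change of 0.11 (95% interval -0.20 to 0.42, adjusted p = 0.61) became -0.14 with values scaled to equal library totals. After AMI it had 771, 894, 788 and 755, above every homeostatic *Bmi1*-CPC library, with a log2 fold change of 0.54 ± 0.12 (SE, adjusted p = 0.0034). *Itgb4*, which pairs only with alpha 6, had 4.51 to 8.64 in *Bmi1*-CPC, 0.690 to 1.51 in the *Sca-1*-YFP- cells and 3.71 to 5.50 after AMI. It was higher in *Bmi1*-CPC by 1.58 ± 0.25 (SE, adjusted p = 3.2e-04) and was not called after AMI (-0.24).

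Receptors for collagen did not move as a group. *Itga1*, a receptor chain for type IV and other collagens, had values of 350.5, 327, 471 and 399 in *Bmi1*-CPC, 109, 188, 143 and 122 in the *Sca-1*-YFP- cells and 243, 253, 275 and 339 after AMI. It was higher in *Bmi1*-CPC by 1.47 ± 0.17 (SE, adjusted p = 3.2e-05). After AMI it was called lower (-0.48 ± 0.13 SE, adjusted p = 0.013), although the highest AMI library overlapped the homeostatic ones. *Itga11*, a receptor chain for fibrillar collagen known from fibroblasts, had the reverse pattern: 19.7, 10.3, 14.7 and 12.6 in *Bmi1*-CPC, 61.8, 38.0, 90.5 and 67.2 in the *Sca-1*-YFP- cells and 30.8, 50.8, 28.4 and 19.9 after AMI. Its log2 fold changes were -2.06 ± 0.24 (SE, adjusted p = 4.2e-05) in homeostasis and 1.08 ± 0.25 (SE, adjusted p = 0.0047) after AMI, where the *Bmi1*-CPC libraries stayed below the AMI ones without overlap. *Itga2*, another collagen receptor chain, followed *Itga11* at lower values, with 2.67 to 5.65 in *Bmi1*-CPC, 7.31 to 11.96 in the *Sca-1*-YFP- cells and 8.67 to 11.3 after AMI, and log2 fold changes of -0.99 and 1.10 (adjusted p = 0.0047 and 9.5e-04). *Itga10*, a cartilage collagen receptor chain at 4.02 to 7.57 in *Bmi1*-CPC, was called in neither comparison.

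The alpha v integrins were low in *Bmi1*-CPC at rest and higher after AMI. *Itgav*, a receptor chain for vitronectin, fibronectin and osteopontin, had values of 72.0, 54.5, 61.0 and 72.0 in *Bmi1*-CPC, 211, 144, 211 and 158 in the *Sca-1*-YFP- cells and 204, 259, 207 and 160.1 after AMI. The *Bmi1*-CPC libraries lay below all others, with log2 fold changes of -1.46 ± 0.15 (SE, adjusted p = 1.5e-05) in homeostasis and 1.65 ± 0.14 (SE, adjusted p = 8.1e-06) after AMI, and the AMI range overlapped that of *Sca-1*-YFP- cells. *Itgb8*, a partner of alpha v that takes part in the activation of latent TGF-beta, had values of 11.4, 8.85, 10.4 and 11.9 in *Bmi1*-CPC, 52.2, 40.0, 48.0 and 39.9 in the *Sca-1*-YFP- cells and 33.2, 41.5, 33.3 and 21.2 after AMI. It was the beta chain with the largest fall in homeostasis, with -1.98 ± 0.15 (SE, adjusted p = 2.6e-06), and after AMI its log2 fold change was 1.49 ± 0.19 (SE, adjusted p = 8.5e-05). None of the motifs searched in the promoters above was in that of *Itgb8*, which describes the sequence only. Fibroblast markers were likewise lower in *Bmi1*-CPC (11 of 11), and after AMI 5 of 11, named above, were higher and 1 was lower. Their part in the values of *Itgav*, *Itgb8* and *Itga11*, or of *Lama2* and *Nid1*, was not tested.

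The other partners of alpha v moved less. *Itgb5*, the beta chain of a vitronectin receptor, had values of 63.5, 48.7, 37.9 and 38.6 in *Bmi1*-CPC, 107, 86.8, 130.4 and 83.7 in the *Sca-1*-YFP- cells and 82.8, 101, 73.1 and 49.3 after AMI. The AMI and homeostatic *Bmi1*-CPC libraries overlapped, and the log2 fold changes were -1.10 ± 0.18 (SE, adjusted p = 4.5e-04) in homeostasis and 0.67 ± 0.21 (SE, adjusted p = 0.022) after AMI. Without any 1 of 4 libraries (*Bmi1*-CPC replicate 3 or 4, AMI replicate 1 or 2) its AMI call was lost, with adjusted p of 0.06 to 0.071. *Itgb3*, the beta chain of the platelet and osteoclast integrins, had values of 9.91, 7.997, 14.0 and 9.73 in *Bmi1*-CPC, 19.3, 11.3, 23.1 and 24.1 in the *Sca-1*-YFP- cells and 20.1, 31.3, 28.5 and 19.5 after AMI. Its log2 fold changes were -0.81 ± 0.24 (SE, adjusted p = 0.018), with overlapping groups, and 1.18 ± 0.20 (SE, adjusted p = 5.6e-04), without overlap. The homeostatic call was lost without *Bmi1*-CPC replicate 2 (adjusted p = 0.054) or *Sca-1*-YFP- replicate 3 or 4 (adjusted p = 0.061 for each).

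Of the remaining receptors of the arginine-glycine-aspartate kind, *Itga8* was lower in *Bmi1*-CPC at rest and *Itga5* was not called in either comparison. *Itga5*, the fibronectin receptor chain, had 106 to 136 in *Bmi1*-CPC, 126 to 170.4 in the *Sca-1*-YFP- cells and 103 to 134 after AMI. It was not called in homeostasis (-0.33, adjusted p = 0.058), and it was called lower with the replicate number as a block (adjusted p = 0.048) and without *Sca-1*-YFP- replicate 2 (-0.43, adjusted p = 0.0096), as well as in the fit of all 12 libraries (adjusted p = 0.044) and under both scalings to equal totals (0.0085 and 0.041). *Itga8*, a receptor chain for nephronectin and fibronectin, had 14.4 to 21.2 in *Bmi1*-CPC, 26.4 to 35.3 in the *Sca-1*-YFP- cells and 11.1 to 15.5 after AMI. It was lower in *Bmi1*-CPC, with a log2 fold change of -0.78 ± 0.15 (SE, adjusted p = 0.0014), and not called after AMI (-0.29).

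*Itga4* was higher in *Bmi1*-CPC and higher again after AMI, while *Itga9* was lower in *Bmi1*-CPC at rest and not called after AMI. *Itga4*, a receptor chain for VCAM1 and fibronectin known from leukocytes, had values of 12.9, 10.1, 12.8 and 14.8 in *Bmi1*-CPC, 6.48, 5.46, 4.30 and 3.45 in the *Sca-1*-YFP- cells and 72.0, 48.0, 36.7 and 49.0 after AMI. No groups overlapped in either comparison, and the log2 fold changes were 1.22 ± 0.21 (SE, adjusted p = 5.2e-04) and 1.91 ± 0.19 (SE, adjusted p = 1.7e-05). *Itga9*, a receptor chain for tenascin-C among others, had 66.7 to 83.0 in *Bmi1*-CPC, 112 to 178 in the *Sca-1*-YFP- cells and 70.8 to 89.5 after AMI, with log2 fold changes of -0.80 ± 0.14 (SE, adjusted p = 7.8e-04) and 0.01 (95% interval -0.22 to 0.24).

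The leukocyte chains *Itgam*, *Itgb2* and *Itgal* were higher in *Bmi1*-CPC at rest and higher again after AMI. *Itgam*, the alpha chain of the myeloid integrin Mac-1, had values of 20.6, 10.98, 9.38 and 13.3 in *Bmi1*-CPC, 0.158, 0.111, 0.581 and 0.414 in the *Sca-1*-YFP- cells and 72.7, 49.5, 54.4 and 43.1 after AMI. *Itgb2*, the beta chain it shares with the other leukocyte integrins, had 4.59, 5.44, 4.26 and 6.61 in *Bmi1*-CPC, 0.158, 0.111, 0.116 and 0.414 in the *Sca-1*-YFP- cells and 30.7, 24.3, 21.4 and 20.9 after AMI. Both were at most 0.581 in the *Sca-1*-YFP- cells, and in each comparison the groups stood apart. The *Sca-1*-YFP- values rest on 4 reads of *Itgam* and 2 of *Itgb2* over 4 libraries, against 213 and 84 in *Bmi1*-CPC, and the read rates differed 71.4 times (exact 95% interval 27.5 to 265) and 56.3 times (15.1 to 473), where the intervals cover counting error only and both genes passed the filter through *Bmi1*-CPC alone. Their log2 fold changes after AMI were 1.97 ± 0.22 (SE, adjusted p = 4.1e-05) and 2.02 ± 0.17 (SE, adjusted p = 7.5e-06). *Itgal*, the alpha chain of the lymphocyte integrin LFA-1, had 4.45 to 5.24 in *Bmi1*-CPC, 1.67 to 2.07 in the *Sca-1*-YFP- cells and 5.24 to 17.0 after AMI. It was higher in both comparisons, by 1.04 ± 0.20 (SE, adjusted p = 0.0012) and 0.86 ± 0.29 (SE, adjusted p = 0.029), and the AMI call was lost without *Bmi1*-CPC replicate 2 or 4 or AMI replicate 1 or 4 (adjusted p = 0.057 to 0.09).

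Leukocyte markers moved with these chains. The 9 macrophage markers summed to 144 to 264 in *Bmi1*-CPC, 3.17 to 5.91 in the *Sca-1*-YFP- cells and 748 to 1339.5 after AMI, and all 9 were higher in both comparisons. Of the 9, *C1qa*, *C1qc* and *Emr1* were at 0 reads in all *Sca-1*-YFP- libraries, where 0 reads allow a value of up to 0.316 to 0.828 (3 reads). In the *Bmi1*-CPC libraries they had 11 to 24, 26 to 67 and 21 to 36 reads. Other markers of this list were read in the *Sca-1*-YFP- libraries, such as *Cd68* with 3 to 23 reads and *Cd14* with 2 to 14. The 7 general leukocyte markers summed to 134 to 184, 47.0 to 60.2 and 357 to 607, with 6 higher in each comparison. *Arhgdib*, called in neither, was at 39.4 to 52.5, 34.4 to 46.3 and 44.9 to 66.8 in the same groups, most of the *Sca-1*-YFP- sum. *Coro1a* was at most 0.690 in the *Sca-1*-YFP- cells and passed the homeostatic filter through *Bmi1*-CPC alone. CD45+ cells had been removed from the *Sca-1*-YFP- population, so the sort and the cells' own levels cannot be told apart for *Itgam*, *Itgb2*, *Itgal* and *Itga4*, and the part of leukocytes in the rise of these chains after AMI was not tested.

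**Figure D4:**
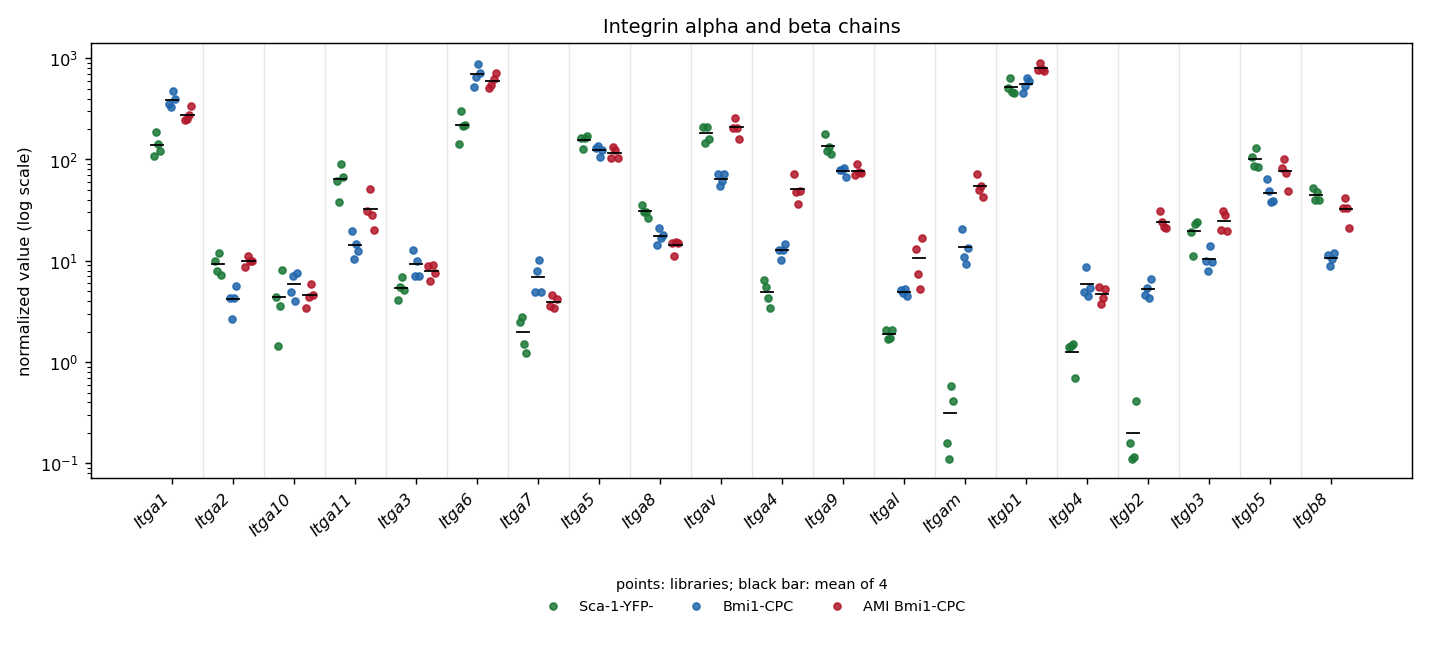
Normalized values (vertical axis, log scale) of the 20 integrin chains (horizontal axis) in the *Sca-1*-YFP- cells, *Bmi1*-CPC and AMI *Bmi1*-CPC. Each point is 1 library and black bars are means of 4, and a library with 0 reads is drawn at the small value that the study's scaling gives it. *Itgav* and *Itgb8* dip in *Bmi1*-CPC (54.5 to 72.0 and 8.85 to 11.9), while *Itgam* and *Itgb2* lie under 1 in all *Sca-1*-YFP- libraries and highest after AMI.

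Genes that work with these chains were counted from lists of pathway genes. Of 19 other integrin ligands, 2 were higher in *Bmi1*-CPC than in the *Sca-1*-YFP- cells, 11 were lower and 6 were not called, with a median of -0.83, beside 16.8% higher and 17.6% lower of all genes. *Tgfbi*, *Thbs2* and *Emilin1*, all secreted matrix proteins, had log2 fold changes of -1.70 (adjusted p = 3.8e-05), -1.77 (adjusted p = 4.3e-05) and -1.18 (adjusted p = 5.8e-05). The 2 higher ones were *Vtn* (2.47, adjusted p = 3.0e-05), which encodes the alpha v ligand vitronectin, and *Icam2* (1.45, adjusted p = 4.4e-04), an endothelial ligand of LFA-1. After AMI 13 of the 19 were higher and 2 lower, with a median of 0.97, beside 21.4% higher and 22.0% lower of all genes. The matrix proteins tenascin-C, periostin and osteopontin led: *Tnc* went from 16.9 ± 1.90 (SD) to 504 ± 181, *Postn* from 221 ± 64.4 to 5894 ± 1709 and *Spp1* from 2.40 ± 0.945 to 70.8 ± 22.5. Their log2 fold changes were 4.75 (adjusted p = 1.2e-07), 4.72 (adjusted p = 2.2e-07) and 4.38 (adjusted p = 8.0e-07). *Vtn* and *Mfge8*, which encodes a ligand of alpha v on dying cells, were lower, with -1.48 (adjusted p = 5.8e-04) and -0.54 (adjusted p = 0.015).

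Of 25 adaptors that tie integrins to the cytoskeleton, 12 were higher in *Bmi1*-CPC than in the *Sca-1*-YFP- cells, 6 were lower and 7 were not called (median 0.36), 72.0% called beside 34.4% of all genes. *Parvb* and *Lims2*, parts of the integrin-linked kinase complex, and *Ptk2*, the focal adhesion kinase, were higher by 1.70 (adjusted p = 3.2e-05), 0.93 (adjusted p = 1.5e-04) and 0.75 (adjusted p = 2.7e-04). The lower ones included *Tns3*, *Parva* and *Src*, with -0.88 (adjusted p = 3.8e-04), -0.43 (adjusted p = 0.0075) and -0.94 (adjusted p = 0.0086). After AMI 8 were higher and 10 lower (median -0.09), 72.0% called beside 43.4% of all genes. *Tns1*, *Lims2* and *Pxn*, which encode a tensin, an adaptor of the same kinase complex and paxillin, fell by 1.52, 1.57 and 1.03 on the log2 scale (adjusted p = 2.2e-06, 8.3e-06 and 6.4e-05). *Tns3*, *Ptk2b* and *Actn1*, which encode another tensin, a kinase akin to the focal adhesion kinase and an actin crosslinker, were higher by 1.43 (adjusted p = 5.0e-05), 1.93 (adjusted p = 6.9e-05) and 1.14 (adjusted p = 1.2e-04).

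Receptors for laminin other than integrins, with the dystroglycan complex, counted 16 genes. In homeostasis 3 were higher in *Bmi1*-CPC, 10 lower and 3 not called (median -0.62), which is 81.2% called beside 34.4% of all genes. *Utrn*, *Bcam* and *Sntb1* were higher by 0.99 (adjusted p = 5.7e-05), 1.43 (adjusted p = 2.8e-04) and 1.09 (adjusted p = 0.0057), *Bcam* being a receptor of the laminin alpha 5 chain. The sarcoglycans *Sgcb* and *Sgce* and dystroglycan, *Dag1*, were lower, with -0.82 (adjusted p = 1.6e-04), -0.91 (adjusted p = 1.7e-04) and -0.70 (adjusted p = 2.9e-04). After AMI 4 were higher and 5 lower (median -0.10), 56.2% called beside 43.4% of all genes. *Bcam*, *Utrn* and *Sntb1* were lower, with -1.80 (adjusted p = 1.5e-05), -0.69 (adjusted p = 7.8e-04) and -0.88 (adjusted p = 0.0064), and *Bcam* thus had the same directions in both comparisons as *Lama5*. *Sgcd*, *Sgcb* and *Dmd*, which encodes dystrophin, were higher by 0.82 (adjusted p = 0.0057), 0.41 (adjusted p = 0.0067) and 0.35 (adjusted p = 0.02).

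Other basement membrane components counted 16 genes, 15 of them tested in homeostasis. There 3 were higher in *Bmi1*-CPC and 7 lower (median -0.53), 66.7% called beside 34.4% of all genes. *Smoc2*, *Fbln1* and *Fbln2*, which encode matrix proteins bound to basement membranes and elastic fibers, had log2 fold changes of -1.92 (adjusted p = 3.5e-06), -1.90 (adjusted p = 9.7e-06) and -1.68 (adjusted p = 1.2e-05), and *Fbln1* is also among the fibroblast markers. *Tinagl1*, *Pxdn* and *Papln* were higher by 1.49 (adjusted p = 6.9e-04), 0.50 (adjusted p = 0.0017) and 0.71 (adjusted p = 0.0072), *Pxdn* being the enzyme that crosslinks type IV collagen. After AMI 4 were higher and 5 lower (median 0.03), 56.2% called beside 43.4% of all genes. *Frem1*, *Efemp2* and *Fras1* were higher by 2.53 (adjusted p = 3.6e-04), 0.96 (adjusted p = 0.001) and 1.23 (adjusted p = 0.0076), and *Tinagl1*, *Papln* and *Prelp* were lower, with -1.10 (adjusted p = 5.0e-05), -1.36 (adjusted p = 4.6e-04) and -0.74 (adjusted p = 0.0011). *Frem1* and *Fras1* belong to 1 complex of embryonic basement membranes.

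Some of these values can hold reads of another gene. Exon bases or stretches of at least 75 bases at 95% identity or more are shared with another annotated gene by 15 of the 33, and the libraries do not keep the strand. The longest is in *Itgam*, which shares 3450 exon bases with the readthrough gene *Gm49368*. *Itga4* shares 127 exon bases with *Cerkl* and *Nid2* 437 with *Rtraf*, both on the opposite strand and both counted in the tables, and *Itgb2* matches the gene *Gm14699* over 228 bases at 96.5% identity.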

How the data were processed

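The deposited values were examined, a normalized signal for 12528 genes that the authors had computed per library. The submitters' notes name cutadapt, RSEM, edgeR and the mouse build NCBIM37, with versions not given in the sources used here. Columns of the authors' fold change, log2 fold change and adjusted p-value in the deposited tables hold their findings and were not used. Every deposited value (100% at a tolerance of 1e-06) equalled, once divided by 1 factor for its library, whole reads plus 0.5. Libraries recovered 3397621 to 8078721 reads, and replicates differed by more than counting noise (chi-square per degree of freedom 4.75 to 29.3). The *Bmi1*-CPC columns are the same in both deposited tables (largest difference 0).

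Each comparison was fitted in limma 3.58.1 (R 4.3.3) with a mean-variance trend on log2(value + 1), over its 8 libraries and every gene with a value above 1 in at least 4, two-sided, with Benjamini-Hochberg adjustment. The fits were also run on simulated counts without pairing between libraries, and the outcome is not given here. Alternatives were pseudocounts of 0.5 and 5, no filter, scaling to equal totals (and, added after seeing the data, without *mt-Rnr2*), edgeR 4.0.16 and DESeq2 1.42.0 on the recovered reads, all 12 libraries in 1 fit, a replicate block and each library left out. The study names no gene-level model. The study calls the samples of both comparisons matched. Replicate numbers were taken to pair the homeostatic samples, where deviations of same-numbered libraries correlated at 0.262, 0.246, 0.159 and 0.301, and not those of the AMI comparison (-0.0103 to 0.0754). The reported fits hold no block, so the homeostatic SEs, intervals and p-values do not use this pairing, and the block is an alternative only. The genes and lists were chosen with earlier results of these data known. Library values are given for genes called with a log2 fold change of 1 or more in size and a mean of 10 or more in a group compared, for *Itgb1*, the 3 laminin chains highest per kilobase, nidogens and proteoglycans. Of each pathway list up to 3 called genes per comparison and direction with the smallest adjusted p are named. Lengths and overlaps come from GENCODE M21, near copies from blastn 2.17.0 and promoters from RefSeq (GRCm38.p6), while the values were made on an older build. No per-sample column was left out. The values of 1 gene of the set, which the counts include, are not reported here.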

Additional observations from a re-analysis of the deposited data

Results flagged for a closer look

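In 6 of 99 sets of 4 libraries, 1 gene in 1 group each, a library stood far from the other 3 by Dixon's criterion, and chance alone gives about 1 in 20. *Agrn* in *Bmi1*-CPC replicate 1 was at 114, with the others at 152 to 159. *Itga5* in *Sca-1*-YFP- replicate 2 was at 126, with the others at 163 to 170, and without that library the gene was called lower in homeostasis. *Itga8* in AMI *Bmi1*-CPC replicate 2 was at 11.1, below 15.0 to 15.5. In *Sca-1*-YFP- replicate 4, *Itgb2* was at 0.414, above 0.111 to 0.158, and *Itgb4* was at 0.690, below 1.42 to 1.51. *Lamc3* in *Sca-1*-YFP- replicate 3 was at 1.74, below 3.17 to 3.23.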

How the results depend on the processing

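The number of genes called in either direction, and the counts in each direction over the 33, moved by at most 1.5 times in every alternative. In each direction over all genes, scaling to equal library totals moved the counts further: in homeostasis from 2090 to 1323 higher and from 2196 to 3344 lower, and after AMI from 2750 to 1774 lower. With *mt-Rnr2* left out of the totals these counts were 1924 higher and 2344 lower in homeostasis, and 2467 lower after AMI. The count test of edgeR on the recovered reads called 4272 genes in homeostasis and 5464 after AMI, and DESeq2 4239 and 5359. Leaving out 1 library gave 11 to 12 higher and 15 to 17 lower genes of the set in homeostasis, and 9 to 11 and 5 to 6 after AMI. Of 1105 values of single genes under alternatives, 1053 kept direction and side of the threshold, 25 lost a call (6 results: *Itga3* and *Itgb3* in homeostasis, and *Itga1*, *Itga7*, *Itgal* and *Itgb5* after AMI), 7 gained one (*Itga5* and *Nid2* in homeostasis) and 20 changed sign. None that changed sign had been called. With values scaled to equal totals the log2 fold changes became -0.14 for *Itgb1* in homeostasis and, after AMI, 0.01 for *Itga5*, 0.09 for *Lama2*, 0.01 for *Lama4*, 0.04 for *Lamc1* and 0.08 for *Nid2*. Scaling without *mt-Rnr2* gave 0.03 for *Lama2* and 0.02 for *Nid2*. Without 1 library the AMI values ranged from -0.07 to 0.05 for *Itga9*, -0.14 to 0.08 for *Lama2*, -0.03 to 0.08 for *Lamb1*, -0.14 to 0.01 for *Lamc1* and -0.10 to 0.08 for *Nid2*. The cause was not tested.

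With the replicate number as a block, 4667 genes were called in homeostasis and the set split into 12 higher and 17 lower. The block changed the call of no gene of the set but *Itga5*. For AMI, where same-numbered libraries did not deviate together, the block called 5213 genes, and 11 higher and 6 lower of the set. At the depth of these libraries 3 reads correspond to a value of 0.316 to 0.888. *Itgam* and *Itgb2* are thus near the limit in the *Sca-1*-YFP- cells, and *Lamc3* in *Bmi1*-CPC both at rest and after AMI. The homeostatic fold changes of these genes depend on the pseudocount. The log2 fold change of *Itgam* in homeostasis ranged from 1.77 to 6.18 over the alternatives, and that of *Itgb2* from 0.97 to 5.79.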

Other observations

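Markers of other cell types were read in the same libraries. The 6 lymphatic endothelial markers were all higher in *Bmi1*-CPC, with a sum of 246 to 384 against 42.0 to 72.0 in the *Sca-1*-YFP- cells, and 1 was lower after AMI (156 to 240.4). Of 7 proliferation markers 5 were higher in *Bmi1*-CPC and all 7 after AMI, with sums of 124 to 140.5 in *Bmi1*-CPC, 40.7 to 68.3 in the *Sca-1*-YFP- cells and 337 to 595 after AMI. The 4 Schwann cell markers had sums of 17.5 to 25.4, 16.3 to 20.9 and 16.7 to 20.3 in the same groups, which overlap. Of 4 B and T cell markers, 3 were tested in homeostasis and all were higher in *Bmi1*-CPC, and all 4 were higher after AMI. The platelet marker *Pf4* had mean values of 3.47 ± 1.15 (SD), 1.46 ± 0.741 and 8.75 ± 0.745 and was higher in both comparisons.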
